A study of Mus musculus with 12 samples.

Results

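The transcripts of 10 genes that carry or receive repair signals from the stroma of the gut were examined in mouse colon: the growth factors Hgf, Igf1, Fgf7 and Fgf10, the Wnt pathway ligands Rspo3 and Wnt5a, the receptors Met and Igf1r, the insulin-like growth factor (IGF) binding protein Igfbp5 and the bone morphogenetic protein (BMP) antagonist Grem1. They were chosen by symbol, with earlier results of these data known, from the 54532 genes listed in the count files. Shares of all tested genes given beside their counts are therefore a background and not a test. Each of the 10 was found and passed the filter on low counts, which kept 17658 genes for testing.

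Total RNA of colon tissue from male C57BL/6 mice, 6 weeks old before 1 week of adaptation, was sequenced in 4 groups of 3. The DSS group received 3% (w/v) dextran sulfate sodium, a polymer that injures the colonic epithelium, in the drinking water for 5 days. Both ursolic acid groups received the same DSS together with ursolic acid (UA), a triterpenoid of many plants, gavaged at 200 mg/kg. UA started 1 day before DSS in the UA+DSS group (early UA) and 3 days after the start of DSS in the DSS+UA group (late UA). The methods give 7 and 4 days of UA, and the discussion gives 9 and 5 days. The Con group had neither agent. The labels call it untreated, whereas the methods describe gavage of the vehicle in the Con and DSS groups. No group had UA without DSS, so an effect of UA in uninjured colon was not measured. Nothing in the sources says more of the replicates than that they were separate colonic tissues, and p-values measure the spread between these tissues.

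Hepatocyte growth factor (HGF), encoded by Hgf, and the fibroblast growth factors FGF7 and FGF10 are made mainly by mesenchymal cells and act on epithelial cells through MET and FGFR2, where they promote migration, survival and proliferation. IGF-1 acts through IGF1R on epithelial, muscle and stromal cells, and IGFBP5 binds it in the matrix. R-spondin 3 raises Wnt signaling at the crypt base through LGR receptors, WNT5A acts largely through noncanonical Wnt receptors, and gremlin 1 holds BMP signals away from the crypt base. Fibroblasts are a known source of most of these ligands in the intestine.

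Total counts were 15566216 to 19498383 per library with a median of 18569669.5. DSS 3 stood apart by transcripts of pancreatic acinar cells, at a summed 14791 CPM (the standard count unit scaled to a common library size) for 8 markers against 31.4 to 554 in the other 11 libraries. DSS 2 held a summed 17989 CPM of 8 neutrophil markers, against 618 and 824 in DSS 1 and DSS 3. Hox genes that mark position along the colon also differed between groups. The score was the mean log2 CPM of 5 rectal genes (Hoxb13 and Hoxd10, Hoxd11, Hoxd12, Hoxd13) minus that of 6 caecal genes (Hoxb3, Hoxb4, Hoxb5, Hoxb6, Hoxb7, Hoxb8). It was 5.53, -3.03 and -1.83 in Con, 0.37 to 3.10 in DSS, -5.70 to -4.16 in UA+DSS and 4.11 to 5.06 in DSS+UA. Position along the colon and the UA schedule therefore cannot be told apart in comparisons with the UA groups. In Igf1, Igf1r and Fgf10, DSS 2 or DSS 3 stood well above the other DSS libraries, and their results are given below also without that library. Values of the pathway genes are not given in this way.

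The sequence before the start of 3 members that rose with DSS is shown, since these are the member windows with a CCAAT box. RefSeq windows of GRCm38.p6 were matched for 8 of the 10 members, with 9 windows in all because Hgf has 2. Rspo3 and Wnt5a were not matched. The windows hold the 250 bases before the annotated start, written from 5′ to 3′ on the strand of the gene. They lie at chr2:113758649-113758898 on the minus strand for Grem1, chr2:126034408-126034657 on the plus strand for Fgf7 and chr10:87860861-87861110 on the plus strand for Igf1. The Igf1 window lies within the annotated span of the gene (chr10:87858265-87937042), so it precedes a RefSeq start that is not the first base of that span. Capitals mark the matches of 5 motifs, read on both strands.
Grem1: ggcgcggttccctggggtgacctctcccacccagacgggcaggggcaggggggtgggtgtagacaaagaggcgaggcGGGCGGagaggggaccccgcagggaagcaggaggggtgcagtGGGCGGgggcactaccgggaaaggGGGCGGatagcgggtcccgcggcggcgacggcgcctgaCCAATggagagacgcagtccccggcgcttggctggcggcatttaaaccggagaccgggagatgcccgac
Fgf7: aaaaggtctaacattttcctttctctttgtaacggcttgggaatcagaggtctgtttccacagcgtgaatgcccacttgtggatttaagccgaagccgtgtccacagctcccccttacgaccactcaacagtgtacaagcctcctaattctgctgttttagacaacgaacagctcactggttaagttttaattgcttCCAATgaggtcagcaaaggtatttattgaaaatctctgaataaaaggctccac
Igf1: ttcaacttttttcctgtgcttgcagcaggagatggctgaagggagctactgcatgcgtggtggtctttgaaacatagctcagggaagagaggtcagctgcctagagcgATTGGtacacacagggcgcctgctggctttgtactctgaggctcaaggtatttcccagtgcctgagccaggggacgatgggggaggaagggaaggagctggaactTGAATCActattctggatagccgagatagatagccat
The Grem1 window held a CCAAT box whose first base lies at -69 from the start, and 3 GC boxes (GGGCGG) at -173, -131 and -107. In the Fgf7 window the CCAAT box lay at -53. The Igf1 window held a CCAAT box in reverse orientation at -142 and, at -37, the letters TGAATCA. These match the pattern searched for AP-1 (TGANTCA), in which N is any base. CCAAT was present in 3 of the 9 member windows and in 33.8% of all 32851 windows. The GC box was found in 4 windows (Fgf10, Grem1, Igf1r and Met) against 32.7% of all windows. The AP-1 pattern was found in 2 (Igf1 and Met) against 6.75%. The TATA box (TATAAA, 12.4% of all windows) and the STAT motif (TTCNNNGAA, 7.02%) had 0 matches in the member windows. A match is a description of letters, and the binding of a factor was not measured.

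DSS raised 5 of the 6 ligands, the binding protein and the BMP antagonist, while Fgf10 and both receptors did not pass the test. In DSS against Con, 7 of the 10 genes rose (edgeR quasi-likelihood test, Benjamini-Hochberg adjusted p under 0.05 over all tested genes, here termed called) and 0 fell. Over all tested genes 13.9% were called higher. The fitted value was higher in DSS for all 10 genes, with a median log2 fold change of 1.55 against -0.03 over all tested genes. For 7 genes every DSS library lay above every Con library, a pattern seen in 21.2% of tested genes. The 3 genes without a call were Met, Igf1r and Fgf10. In bulk tissue, more cells of a type and more RNA per cell cannot be told apart, nor can fewer cells and less RNA per cell.

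Most of these genes were lower under each UA schedule than with DSS alone. With early UA, 6 genes fell against DSS alone (Hgf, Igf1, Igfbp5, Fgf7, Grem1 and Wnt5a), against 10.5% of all tested genes called lower, and 0 rose, against 8.21% called higher. The fitted value was lower in UA+DSS for all 10 genes, with a median log2 fold change of -1.58 against -0.02 over all tested genes. In 7 genes every UA+DSS library lay below every DSS library (21.7% of tested genes). In DSS+UA against DSS, 7 genes fell (Hgf, Igf1, Igf1r, Igfbp5, Fgf7, Fgf10 and Wnt5a), against 5.0% of all tested genes called lower, and 0 rose, against 2.54% called higher. The median log2 fold change was -1.80 against 0.02, and 9 genes did not overlap between the groups (16.4% of tested genes). Scaling by library size alone left 12.2% of all calls in this comparison on the higher side, against 33.7% with the trimmed mean of M-values (TMM), and moved the median of all genes by -0.13 on the log2 scale. The 3 comparisons of this and the preceding paragraph share the DSS libraries, so their values are not independent.

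**Figure D1:**
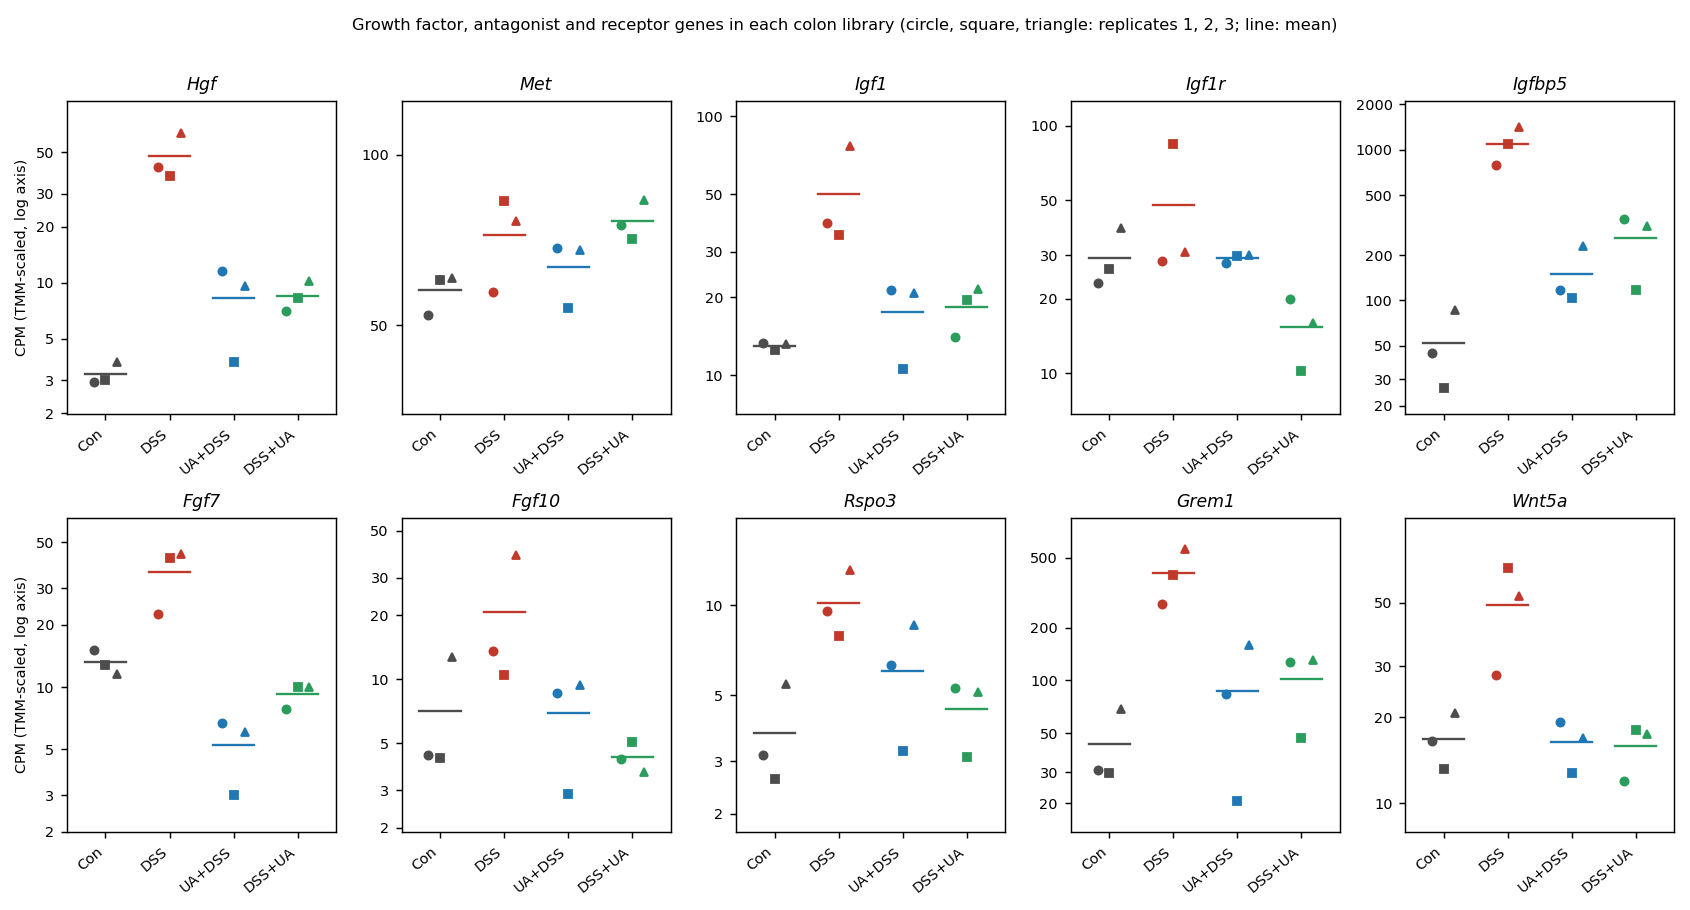
TMM-scaled CPM (log axis) of the 10 genes in each of the 12 libraries, with 1 panel per gene, the groups on the horizontal axis, a symbol for each replicate number and a line at the group mean. The DSS libraries stand above the rest for Hgf, Igf1, Igfbp5, Fgf7, Grem1 and Wnt5a, while Met lies between 52.2 and 83.2 CPM in all libraries.

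**Figure D2:**
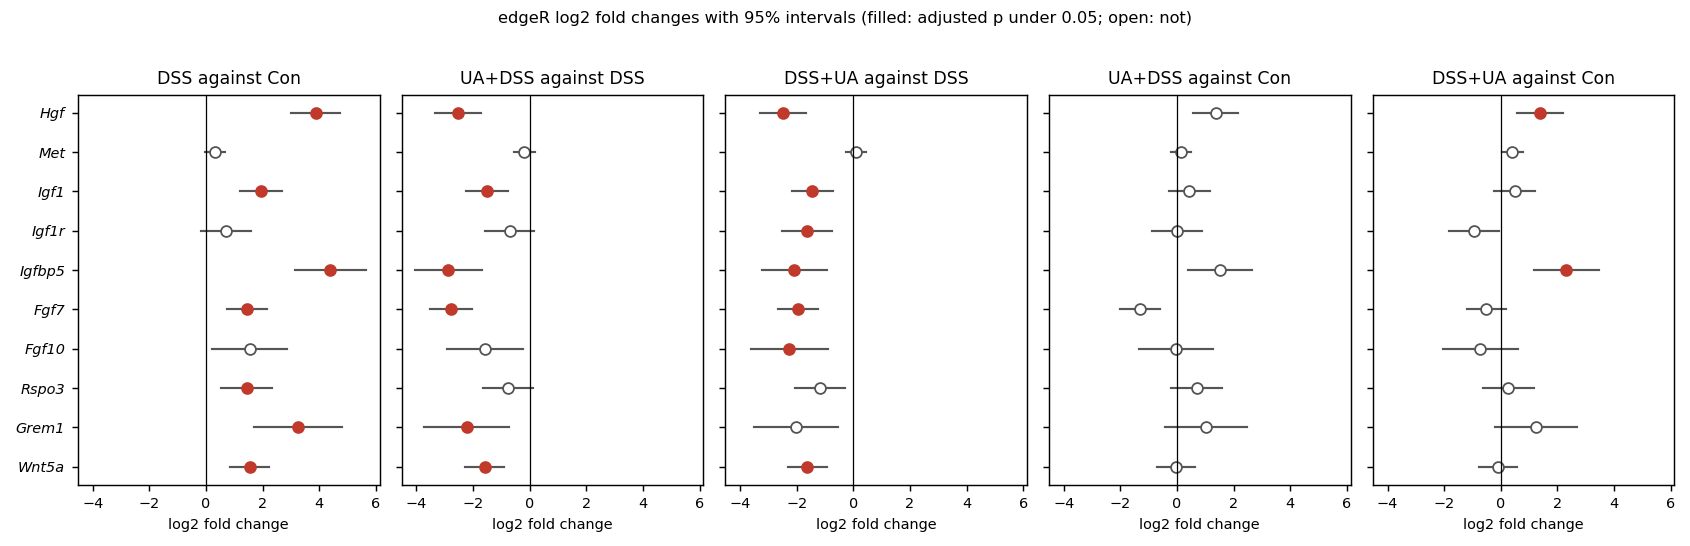
Log2 fold changes from edgeR (horizontal axis) of the 10 genes (vertical axis) in 5 comparisons, with 95% intervals as bars. Filled points passed an adjusted p of 0.05: 7 genes in DSS against Con, 6 and 7 in the comparisons of UA+DSS and DSS+UA with DSS, and 0 and 2 in their comparisons with Con.

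Among the ligands, Hgf (ENSMUSG00000028864, chr5:16553495-16620152, plus strand), a mitogen and motogen of epithelial cells, was low in Con at 2.95, 3.0 and 3.74 CPM, from 54 to 70 counts per library. It reached 41.9, 37.5 and 63.1 CPM in DSS. The UA+DSS libraries had 11.5, 3.75 and 9.57 CPM and the DSS+UA libraries 7.06, 8.23 and 10.2 CPM. Every DSS library was above every library of the other groups, and DSS+UA lay above Con without overlap. UA+DSS and Con all but met, at 3.75 CPM in UA+DSS 2 (60 counts) and 3.74 CPM in Con 3 (70 counts). Hgf rose 14.7-fold in DSS against Con (log2 fold change 3.88, SE 0.39, edgeR adjusted p = 0.000833), and it stayed called under all 22 alternatives. It fell 5.73-fold in UA+DSS against DSS (log2 fold change -2.52, SE 0.37, adjusted p = 0.00725). The fall in DSS+UA against DSS was 5.59-fold (log2 fold change -2.48, SE 0.37, adjusted p = 0.00866). Without DSS+UA 3 the last value was -2.62 with an adjusted p of 0.0528. Exons of Gm43489 on the same strand cover 6.74% of the Hgf exon bases, so reads there cannot be assigned with certainty.

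Igf1 (ENSMUSG00000020053, chr10:87858265-87937042, plus strand), the IGF-1 ligand, varied little in Con at 13.2, 12.5 and 13.2 CPM. It was measured at 38.8, 34.9 and 76.6 CPM in DSS. The UA+DSS libraries held 21.3, 10.6 and 20.8 CPM of it, and the DSS+UA libraries 14.0, 19.5 and 21.5 CPM. The DSS libraries did not overlap with any other group, and DSS 3 was the highest. Igf1 rose 3.86-fold with DSS (log2 fold change 1.95, SE 0.34, adjusted p = 0.00383). Without DSS 3 this log2 fold change was 1.50 (adjusted p = 0.00553). Igf1 fell 2.85-fold in UA+DSS against DSS (log2 fold change -1.51, SE 0.33, adjusted p = 0.0157). The fall in DSS+UA against DSS was 2.74-fold (log2 fold change -1.45, SE 0.33, adjusted p = 0.0327). The first of these falls had an adjusted p of 0.0718 without UA+DSS 2, and a log2 fold change of -1.07 without DSS 3 (adjusted p = 0.0264). The second lost its call on leaving out DSS 3, UA+DSS 3, DSS+UA 1, DSS+UA 2 or DSS+UA 3, with adjusted p from 0.0510 to 0.104, and without DSS 3 its log2 fold change was -0.99. In a fit of the 2 groups alone, the first fall had an adjusted p of 0.0564 and the second 0.0679.

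Fgf7 (ENSMUSG00000027208, chr2:126034658-126091185, plus strand) encodes keratinocyte growth factor. It had 15.2, 12.8 and 11.6 CPM in Con and 22.6, 42.0 and 43.8 CPM in DSS. The UA+DSS libraries had 6.74, 3.0 and 6.06 CPM, and the DSS+UA libraries 7.85, 10.02 and 9.98 CPM. All UA+DSS and DSS+UA libraries lay below all Con libraries, a position that no other ligand took in both UA groups. Fgf7 rose 2.74-fold with DSS (log2 fold change 1.45, SE 0.32, adjusted p = 0.00871). It fell 6.85-fold in UA+DSS against DSS (log2 fold change -2.78, SE 0.33, adjusted p = 0.00501) and 3.89-fold in DSS+UA against DSS (log2 fold change -1.96, SE 0.32, adjusted p = 0.0134). Without DSS+UA 3 the second fall had an adjusted p of 0.0796 at a log2 fold change of -2.00.

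Fgf10 (ENSMUSG00000021732, chr13:118669791-118792115, plus strand), which signals through the same receptor isoform, was spread widely within groups. Con had 4.40, 4.27 and 12.7 CPM, and DSS 13.7, 10.5 and 38.4 CPM. The UA+DSS libraries had 8.66, 2.87 and 9.36 CPM and the DSS+UA libraries 4.21, 5.07 and 3.66 CPM. DSS and Con overlapped through Con 3 and DSS 2, and DSS 3 held the highest value. The log2 fold change of DSS against Con was 1.55 (95% interval 0.23 to 2.87, adjusted p = 0.0779), without Con 3 it was 2.25 (adjusted p = 0.0316), and without DSS 3 it was 0.77 (adjusted p = 0.329). That of UA+DSS against DSS was -1.58 (-2.90 to -0.25, adjusted p = 0.0888), and -0.80 without DSS 3 (adjusted p = 0.337). DESeq2 called both, with adjusted p of 0.0282 and 0.0315. Fgf10 fell 4.83-fold in DSS+UA against DSS (log2 fold change -2.27, SE 0.62, adjusted p = 0.0494). This call, at the edge of the threshold, was lost on leaving out any library except Con 1 and Con 3 (adjusted p from 0.0519 to 0.158), and without DSS 3 the log2 fold change was -1.47. It was also lost by limma-voom (adjusted p = 0.0717), with no filter (0.0943) and in a fit of the 2 groups alone (0.0672). Exons of Gm16263 on the opposite strand cover 2.67% of the Fgf10 exon bases, and the use of strand in the counting is not given in the sources used here.

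Rspo3 (ENSMUSG00000019880, chr10:29452416-29535867, minus strand), an amplifier of Wnt signaling at the crypt base, had the smallest spread over all 12 libraries of the 6 ligands, from 2.61 to 13.1 CPM. Con had 3.15, 2.61 and 5.45 CPM, and DSS 9.57, 7.92 and 13.1 CPM. The UA+DSS values were 6.29, 3.25 and 8.56 CPM and the DSS+UA values 5.27, 3.09 and 5.10 CPM. The DSS libraries lay above all Con and all DSS+UA libraries, whereas UA+DSS 3 overlapped with DSS. Rspo3 rose 2.72-fold with DSS (log2 fold change 1.45, SE 0.41, adjusted p = 0.0251). Without Con 1, Con 2, DSS 1 or DSS 3 the adjusted p was 0.0514 to 0.0873, and in a fit of the 2 groups alone it was 0.0520. The log2 fold change was -0.75 in UA+DSS against DSS (95% interval -1.64 to 0.13, adjusted p = 0.208) and -1.18 in DSS+UA against DSS (-2.07 to -0.29, adjusted p = 0.0858), and DESeq2 called the latter (adjusted p = 0.0298). Gm48159, on the opposite strand, covers 13.1% of the Rspo3 exon bases.

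Wnt5a (ENSMUSG00000021994, chr14:28504750-28527448, plus strand), a Wnt ligand of the stroma, had 16.6, 13.2 and 20.6 CPM in Con and 28.0, 65.9 and 52.9 CPM in DSS. Early UA went with 19.2, 12.7 and 17.0 CPM, and late UA with 12.0, 18.0 and 17.5 CPM. All DSS libraries lay above the other 9, which overlapped among themselves. Wnt5a rose 2.91-fold with DSS (log2 fold change 1.54, SE 0.31, adjusted p = 0.00646). It fell 3.0-fold in UA+DSS against DSS (log2 fold change -1.58, SE 0.31, adjusted p = 0.0122) and 3.09-fold in DSS+UA against DSS (log2 fold change -1.63, SE 0.31, adjusted p = 0.0202). The first fall had an adjusted p of 0.0645 without UA+DSS 2. The second had 0.0504 without DSS 2, 0.0598 without DSS+UA 2, 0.0929 without DSS+UA 3 and 0.0550 in a fit of the 2 groups alone. Gm2670 on the opposite strand covers 4.58% of the Wnt5a exon bases.

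Of the receptors, Met (ENSMUSG00000009376, chr6:17463800-17573980, plus strand), the HGF receptor of epithelial cells, was the steadiest of the 10 genes. It had 52.2, 60.1 and 60.6 CPM in Con and 57.2, 82.8 and 76.4 CPM in DSS. The UA+DSS libraries had 68.6, 53.7 and 68.0 CPM and the DSS+UA libraries 75.4, 71.1 and 83.2 CPM. Its highest library exceeded its lowest 1.59-fold, whereas that ratio was 21.4 for Hgf. The log2 fold change was 0.32 in DSS against Con (95% interval -0.04 to 0.68, adjusted p = 0.161), so the interval allows a small rise and holds no change as large as that of Hgf. It was -0.19 in UA+DSS against DSS (-0.55 to 0.17, adjusted p = 0.458) and 0.09 in DSS+UA against DSS (-0.27 to 0.44, adjusted p = 0.757).

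Igf1r (ENSMUSG00000005533, chr7:67952827-68233668, plus strand), the IGF-1 receptor, had 23.1, 26.5 and 38.5 CPM in Con. In DSS it was 28.3, 84.4 and 30.9 CPM, of which DSS 2, the library rich in neutrophil transcripts, was alone high. UA+DSS had 27.8, 29.9 and 30.1 CPM, and DSS+UA 19.9, 10.2 and 15.9 CPM. The DSS+UA libraries lay below all other libraries. The log2 fold change was 0.71 in DSS against Con (95% interval -0.16 to 1.58, adjusted p = 0.202) and 0.01 without DSS 2. For UA+DSS against DSS it was -0.71 (-1.58 to 0.16, adjusted p = 0.231) and -0.02 without DSS 2. Igf1r fell 3.12-fold in DSS+UA against DSS (log2 fold change -1.64, SE 0.41, adjusted p = 0.0397). Without DSS 2 this was -0.93 with an adjusted p of 0.0946. The call was also lost on leaving out Con 2 or any UA+DSS or DSS+UA library, with adjusted p from 0.0508 to 0.128. By limma-voom the adjusted p was 0.0572, with no filter 0.0556 and in a fit of the 2 groups alone 0.112.

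Igfbp5 (ENSMUSG00000026185, chr1:72857932-72874884, minus strand), the binding protein, moved most of the 10 genes in DSS against Con. It had 44.8, 26.3 and 86.0 CPM in Con, and 794, 1085 and 1410.2 CPM in DSS. The values were 118, 104 and 228 CPM with early UA and 347, 118 and 311 CPM with late UA. The DSS libraries stood above all others, and both UA groups stood above Con without overlap. Igfbp5 rose 20.9-fold with DSS (log2 fold change 4.39, SE 0.57, adjusted p = 0.00163) and stayed called under all 22 alternatives. It fell 7.31-fold in UA+DSS against DSS (log2 fold change -2.87, SE 0.53, adjusted p = 0.0112), with an adjusted p of 0.0614 without UA+DSS 2. The fall in DSS+UA against DSS was 4.24-fold (log2 fold change -2.09, SE 0.52, adjusted p = 0.0401). That call was lost on leaving out DSS 2, DSS 3, UA+DSS 1, UA+DSS 2 or any DSS+UA library, with adjusted p from 0.0543 to 0.117. With no filter the adjusted p was 0.0760, and in a fit of the 2 groups alone it was 0.0578.

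Grem1 (ENSMUSG00000074934, chr2:113746164-113758646, minus strand), the BMP antagonist, had 31.1, 29.7 and 68.8 CPM in Con and 274, 397 and 562 CPM in DSS. The UA+DSS libraries had 83.7, 20.6 and 159 CPM and the DSS+UA libraries 128, 46.8 and 131 CPM. Every DSS library was above the other 9, whereas UA+DSS 2 lay below all Con libraries. Grem1 rose 9.52-fold with DSS (log2 fold change 3.25, SE 0.71, adjusted p = 0.00942) and stayed called under all 22 alternatives. Grem1 fell 4.69-fold in UA+DSS against DSS (log2 fold change -2.23, SE 0.68, adjusted p = 0.0440). Leaving out Con 2, any DSS library, UA+DSS 1, UA+DSS 2, DSS+UA 1 or DSS+UA 3 ended this call (adjusted p from 0.0585 to 0.112). So did no filter (adjusted p = 0.123) and a fit of the 2 groups alone (0.0809). Without UA+DSS 3 the fitted log2 fold change was -2.98 (adjusted p = 0.0423). The value in DSS+UA against DSS was -2.01 (95% interval -3.50 to -0.53, adjusted p = 0.0826), and DESeq2 called it (adjusted p = 0.0115).

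How far the UA groups differed from Con was also compared. In UA+DSS against Con, edgeR called 0 of the 10 genes, against 0.00566% of all tested genes. At an unadjusted p under 0.05 there were 3, against 2132 of all 17658 tested genes, while DESeq2 called 2 members and limma-voom 0. Fgf7 was 2.50-fold lower in UA+DSS (log2 fold change -1.32, adjusted p = 0.226 by edgeR and 0.0127 by DESeq2), Hgf was 2.56-fold higher (1.36, adjusted p = 0.244 and 0.0297), and Igfbp5 had a log2 fold change of 1.52 (adjusted p = 0.316 by edgeR). In DSS+UA against Con, 2 genes rose, against 9.13% of all tested genes called higher. At an unadjusted edgeR p under 0.05 there were 4, against 6360 of all 17658 tested genes. Of all calls in this comparison 50.5% were higher, against 39.9% with library size alone and 38.8% with upper-quartile factors. Hgf rose 2.63-fold (log2 fold change 1.39, SE 0.37, adjusted p = 0.0261) and Igfbp5 rose 4.94-fold (2.30, SE 0.52, adjusted p = 0.0159). Hgf lost this call without Con 1, Con 2, Con 3, DSS+UA 2 or DSS+UA 3 (adjusted p from 0.0520 to 0.0862), and Igfbp5 without DSS+UA 3 (0.0534). By limma-voom Hgf had an adjusted p of 0.0622. Igf1r had a log2 fold change of -0.94 (95% interval -1.82 to -0.06, adjusted p = 0.118), which passed the threshold without DSS 2 (adjusted p = 0.0245). Met had a log2 fold change of 0.41 (95% interval 0.05 to 0.77, adjusted p = 0.0987).

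The schedules of UA were compared directly in UA+DSS against DSS+UA. edgeR, DESeq2 and limma-voom each called 0 of the 10 genes, against 16.8% of all tested genes called by edgeR in either direction, and 2 had an unadjusted p under 0.05, as did 5967 of the 17658 tested genes. Igf1r was 1.91-fold higher in UA+DSS (log2 fold change 0.93, 95% interval 0.05 to 1.81, adjusted p = 0.128). It passed the threshold without DSS 2 (adjusted p = 0.0271) and in a fit of these groups alone (adjusted p = 0.0285). Fgf7 was 1.76-fold lower in UA+DSS (-0.82, interval -1.52 to -0.11, adjusted p = 0.0995). For the remaining 8 genes the log2 fold changes lay between -0.78 (Igfbp5, interval -1.89 to 0.32) and 0.69 (Fgf10, interval -0.63 to 2.02). A missed threshold here does not show that the schedules act alike.

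Levels were compared between genes as CPM per kilobase of exon. In Con, Grem1 (10.4 ± 5.35, SD, n = 3), Igfbp5 (8.72 ± 5.09) and Met (7.51 ± 0.613) were highest and did not differ beyond their spread. Fgf7 followed at 4.06 ± 0.556 and overlapped with Igfbp5 through 1 library. Wnt5a, Igf1r, Fgf10, Igf1 and Rspo3 lay between 1.21 and 2.15, with overlapping libraries. Hgf was lowest at 0.449 ± 0.0621, below every library of the other 9 genes. In DSS the order opened with Igfbp5 at 183 ± 51.3 and Grem1 at 99.1 ± 34.8, whose libraries overlapped only in that the lowest of Igfbp5 (132) was under the highest of Grem1 (135). Fgf7 (11.1 ± 3.63), Met (9.40 ± 1.74) and Hgf (6.61 ± 1.91) came next and overlapped. By its mean Hgf thus moved from the last place in Con to the fifth in DSS, where its libraries overlapped with those of Wnt5a, Igf1 and Fgf10 below it. In both UA groups Igfbp5, Grem1 and Met again had the first 3 means, at 25.0, 21.1 and 8.26 in UA+DSS and at 43.0, 24.5 and 9.97 in DSS+UA. Their order was not resolved in UA+DSS, where Grem1 ranged from 4.97 to 38.2 and overlapped with both Igfbp5 and Met. In DSS+UA the libraries of Igfbp5 and Grem1 overlapped too.

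**Figure D3:**
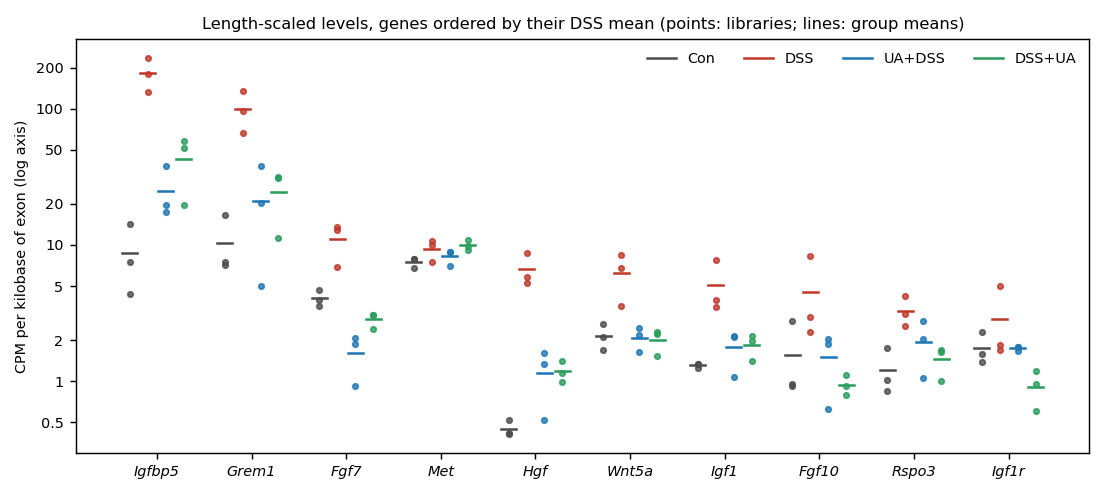
CPM per kilobase of exon (log axis) of the 10 genes, ordered by their DSS mean on the horizontal axis, with points for libraries and lines for group means in the 4 groups. Igfbp5 and Grem1 stand highest in DSS at means of 183 and 99.1, and Hgf is lowest in Con at 0.449.

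The other genes of the same pathways were read from 5 lists of ligands, receptors, proteases, inhibitors and transducers, 132 of whose 151 genes were tested. In DSS against Con 27 were called higher and 19 lower, against 13.9% and 12.6% of all tested genes, with a median log2 fold change of -0.04. Against DSS alone, 18 were called higher and 21 lower in UA+DSS (median -0.17), against 8.21% and 10.5% of all tested genes. In DSS+UA 2 were called higher and 27 lower than in DSS (median -0.57), against 2.54% and 5.0%. The same shares of all tested genes are the background of the counts per list below. Beyond the members, then, the lists did not share 1 direction with DSS. Of the calls named below, those of Hpn, Hgfac, Pappa, Igfbp4, Insr, Fgf2, Fgfr3, Fzd5 and Bmper in DSS against Con held under all 22 alternatives, and each of the other calls was lost under 1 to 14 of them. Genes named below with no value fall outside the naming rule and were chosen after their values were seen.

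Of 14 tested genes around HGF and MET, 2 rose and 4 fell with DSS. Those that fell act on the processing of HGF. Hgfac, the HGF activator protease, went from 157 ± 13.1 CPM in Con to 47.2 ± 19.3 CPM in DSS (log2 fold change -1.73, SE 0.30, adjusted p = 0.00381), without overlap. Hpn, which encodes the protease hepsin, had 11 ± 7.53 and 2.29 ± 0.705 CPM (-2.26, SE 0.46, adjusted p = 0.00670). The other 2 were Spint1 and Spint2, inhibitors of such proteases. Cd44, a co-receptor of MET, rose by 1.82 (SE 0.52, adjusted p = 0.0280) on the log2 scale, and the adaptor Grb2 by 0.62 (SE 0.15, adjusted p = 0.0142). Cd44 ranged from 106 to 568 CPM within DSS. With UA given early, 6 genes rose against DSS alone and 0 fell. Hgfac was at 151 ± 18.0 CPM in UA+DSS (1.68, SE 0.30, adjusted p = 0.00998) and Spint2 at 1278 ± 271 CPM against 552 ± 142 CPM (1.21, SE 0.26, adjusted p = 0.0151). With UA given late, Hgfac (1.15, SE 0.30, adjusted p = 0.0431) and Spint1 (0.77, SE 0.19, adjusted p = 0.0406) rose, and the MET docking protein Gab1 fell (-1.23, SE 0.25, adjusted p = 0.0230) against DSS alone. Thus Hgf and Hgfac moved in opposite directions in each of the 3 comparisons.

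Of 18 tested IGF genes, 4 rose (Pappa, Igfbp4, Stc1 and Igfbp7) and 1 fell with DSS. Pappa, a protease that cleaves IGFBP4, went from 2.82 ± 2.06 CPM to 55.3 ± 9.36 CPM (log2 fold change 4.29, SE 0.61, adjusted p = 0.00238), without overlap. Its substrate gene Igfbp4 rose from 92.8 ± 32.5 to 843 ± 78.9 CPM (3.18, SE 0.39, adjusted p = 0.00133). The insulin receptor gene Insr fell from 120 ± 6.10 to 63.3 ± 10.5 CPM (-0.92, SE 0.18, adjusted p = 0.00529). Against DSS alone, 2 rose and 4 fell in UA+DSS. Igfbp4 fell (-2.42, SE 0.38, adjusted p = 0.00812), as did Pappa2, a related protease (-2.97, SE 0.75, adjusted p = 0.0236), while Insr (0.90, SE 0.18, adjusted p = 0.0119) and Igf2bp2, an RNA-binding protein gene (2.30, SE 0.67, adjusted p = 0.0391), rose. In DSS+UA 0 rose and 6 fell against DSS alone, among them Pappa (-2.57, SE 0.56, adjusted p = 0.0295) and Stc1, whose product inhibits PAPP-A (-2.15, SE 0.34, adjusted p = 0.0126).

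Of 24 tested FGF genes, 3 rose and 4 fell with DSS. Fgf2 rose from 6.29 ± 2.56 to 29.4 ± 7.09 CPM (log2 fold change 2.22, SE 0.44, adjusted p = 0.00600) and Fgfr1, a receptor of mesenchymal cells, from 24.1 ± 13.5 to 61.3 ± 6.70 CPM (1.34, SE 0.32, adjusted p = 0.0129). The receptor Fgfr3 fell from 61.4 ± 23.5 to 10.4 ± 3.52 CPM (-2.56, SE 0.32, adjusted p = 0.00133), and the ligand Fgf9 fell too (-1.22, SE 0.31, adjusted p = 0.0171). The UA+DSS group had 3 rises and 3 falls against DSS alone, with Fgf2 (-2.18, SE 0.44, adjusted p = 0.0128) and the feedback inhibitor Spry4 (-1.44, SE 0.32, adjusted p = 0.0160) lower, and Fgfr3 (1.50, SE 0.31, adjusted p = 0.0137) and Fgfrl1 (1.49, SE 0.24, adjusted p = 0.00902) higher. The DSS+UA group had 0 rises and 5 falls, including Fgf2 (-2.30, SE 0.44, adjusted p = 0.0202) and Fgfr1 (-1.60, SE 0.32, adjusted p = 0.0235). Fgfr2, the receptor of FGF7 and FGF10, was read as well after its values were seen. It had 65.1 ± 14.2 CPM in Con, 46.2 ± 11.2 in DSS, 70.7 ± 8.98 in UA+DSS and 30.3 ± 1.31 in DSS+UA, and its adjusted p was 0.0610 to 0.0988 in the 3 comparisons.

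Of 40 tested R-spondin and Wnt genes, 9 rose and 9 fell with DSS. The secreted Wnt inhibitors Sfrp1 (32.4 ± 22.7 CPM in Con and 208 ± 140 CPM in DSS, log2 fold change 2.68, SE 0.61, adjusted p = 0.0111) and Sfrp2 (3.13, SE 0.97, adjusted p = 0.0374) rose, and Sfrp2 overlapped between the groups. Lgr5, an R-spondin receptor and marker of crypt stem cells, fell from 11.5 ± 4.44 to 2.12 ± 2.18 CPM (-2.45, SE 0.62, adjusted p = 0.0161), and the receptor Fzd5 fell from 126 ± 54.3 to 41.8 ± 6.19 CPM (-1.60, SE 0.29, adjusted p = 0.00426). Rspo3 and Lgr5 moved in opposite directions with DSS. Early UA was followed by 5 rises and 7 falls against DSS alone. Lgr5 was at 8.31 ± 1.51 CPM (1.97, SE 0.61, adjusted p = 0.0449), and Fzd3 rose (2.42, SE 0.66, adjusted p = 0.0294). Sfrp2 fell to 0.431 ± 0.215 CPM (-5.39, SE 1.13, adjusted p = 0.0146), and Frzb, another secreted inhibitor, fell (-2.33, SE 0.74, adjusted p = 0.0490). Late UA gave 0 rises and 5 falls, including Fzd4 (-1.53, SE 0.21, adjusted p = 0.00676) and Sfrp1 (-2.23, SE 0.60, adjusted p = 0.0487).

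All 36 BMP genes were tested, and 9 rose and 1 fell with DSS. The BMP-binding proteins Chrdl2 (from 0.823 ± 0.691 to 19.6 ± 6.24 CPM, log2 fold change 4.55, SE 1.19, adjusted p = 0.0195) and Bmper (from 1.42 ± 0.509 to 10.1 ± 5.49 CPM, 2.83, SE 0.58, adjusted p = 0.00676) rose without overlap, as Grem1 did. Smad1, a transducer of BMP signals, fell (-0.61, SE 0.18, adjusted p = 0.0265). A further 2 genes rose and 7 fell in UA+DSS against DSS alone. The ligand Bmp3 rose (2.38, SE 0.50, adjusted p = 0.0148), as did the receptor Acvr2b (1.18, SE 0.30, adjusted p = 0.0224). Fstl1 (-1.76, SE 0.37, adjusted p = 0.0146) and the antagonist Chrd (-1.30, SE 0.35, adjusted p = 0.0294) fell. Late UA gave 0 rises and 10 falls, with Fst, the follistatin gene (-3.03, SE 0.51, adjusted p = 0.0134), and Bmper (-2.70, SE 0.57, adjusted p = 0.0263) falling most.

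Summed markers of fibroblasts, a source of these signals, moved with most of the members, and so did those of blood and lymphatic endothelium. Macrophage markers did too, although DSS+UA overlapped with DSS. Epithelial markers took the opposite course in sum, with all DSS libraries below all others. A further list, of trophocyte-type fibroblasts, was highest in DSS+UA, at a summed 1283 to 2275 CPM, although 1 of 6 markers was called lower there than in DSS. The summed level of 10 fibroblast markers was 1419 to 2250 CPM in Con, 4033 to 7812 in DSS, 883 to 2108 in UA+DSS and 1277 to 2828 in DSS+UA. With DSS 7 of them rose (median log2 fold change 1.43). Against DSS alone, 6 fell in UA+DSS (median -1.22) and 3 in DSS+UA (median -1.23). The DSS libraries did not overlap with the others in this sum, and UA+DSS 2, the lowest library for Igf1, Fgf7, Fgf10 and Grem1, was also lowest for fibroblast markers. DSS 3, the highest library for Hgf, Igf1, Igfbp5, Fgf7, Fgf10, Rspo3 and Grem1, was highest for them. Other libraries went differently. DSS+UA 2 had the highest fibroblast sum of its group (2828 CPM). Within that group it was lowest for Grem1 (46.8 CPM), Igfbp5 (118 CPM), Rspo3, Igf1r and Met, and highest for Fgf7, Fgf10 and Wnt5a. Con 1 had the highest Con sum (2250 CPM) but was the highest Con library only for Igf1 and Fgf7. Of these markers' changes, the median of 1.43 lies below the log2 fold changes of Hgf (3.88), Igfbp5 (4.39) and Grem1 (3.25) and near those of Fgf7, Rspo3 and Wnt5a. The part of fibroblast content in the results was not tested.

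Among the other cell types, macrophage markers summed to 95.6 to 279 CPM in Con and 586 to 1467 CPM in DSS, with 7 of 8 higher. In UA+DSS they summed to 211 to 506 CPM (4 of 8 lower than in DSS) and in DSS+UA to 227 to 770 CPM (1 of 8 lower). Blood endothelial markers were 174 to 211 CPM in Con, 289 to 439 in DSS, 145 to 170 in UA+DSS and 107 to 117 in DSS+UA, with 5 of 7 higher in DSS than in Con, 5 lower in UA+DSS than in DSS and 6 lower in DSS+UA than in DSS. Lymphatic endothelial markers had 37.5 to 66.8, 112 to 250, 40.7 to 64.5 and 42.9 to 53.8 CPM in the same order. Of 5 tested, 4 were called higher in DSS than in Con, and 4 were called lower than in DSS in each UA group. Epithelial markers, the defining check of colon tissue, were high throughout, at 14302 to 19902 CPM in Con and 7731 to 12927 in DSS, with 1 of 10 called lower, and at 15135 to 25563 in the UA groups. Neutrophil markers rose from 1.28 to 2.14 CPM in Con, where 5 of 8 were at or under 3 counts in every library, to at least 618 CPM in DSS. Trophocyte-type fibroblast markers summed to 590 to 632 CPM in Con and 908 to 1201 in DSS (3 of 6 higher), and telocyte-type markers to 148 to 266 and 231 to 679 CPM (2 of 7 higher). Smooth muscle markers were 1148 to 3628 CPM in Con, with Con 3 the highest, and 720 to 1540 CPM in DSS (0 of 8 called). Con 3 was also the highest Con library for Hgf, Met, Igf1r, Igfbp5, Fgf10, Rspo3, Grem1 and Wnt5a. Mesothelial markers had 1716 to 2619 CPM in Con and 1360 to 1860 in DSS, although 3 of 5 tested were called higher (median log2 fold change 3.49), and their list shares Krt19 with the epithelial list. The sum and the single markers thus differ in direction. Neuronal and glial markers had 18.0 to 47.5 and 62.5 to 79.5 CPM (1 of 8 higher). The part of these cells in the results was not tested.

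**Figure D4:**
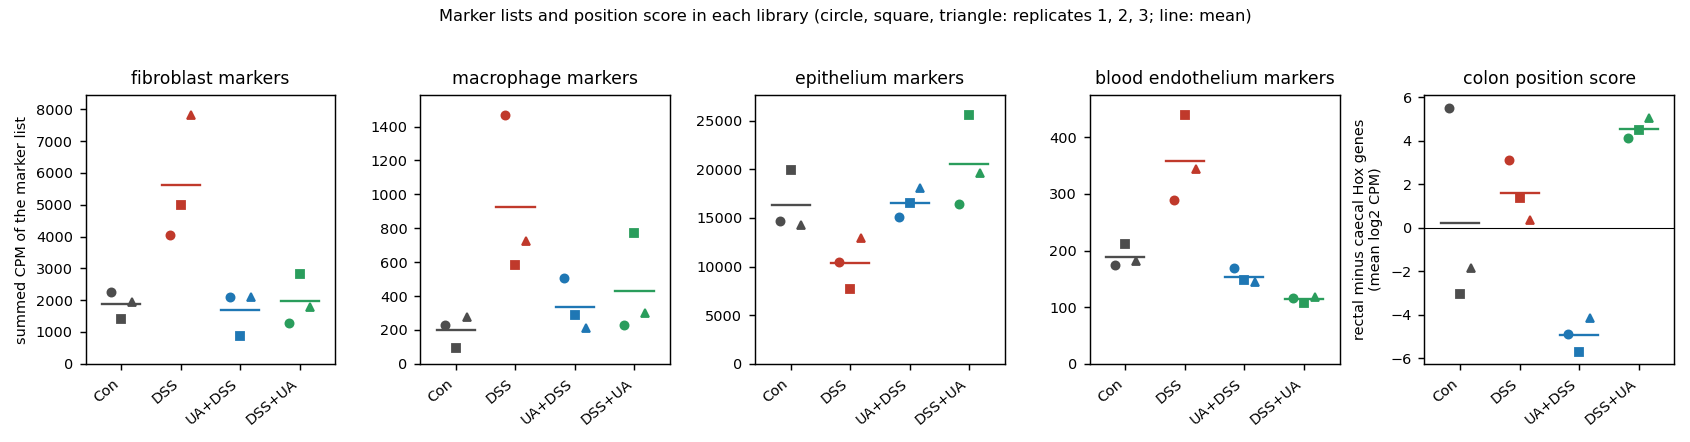
Summed CPM of fibroblast, macrophage, epithelial and blood endothelial markers (linear axes from 0) and the colon position score (mean log2 CPM of rectal minus caecal Hox genes) in the 12 libraries, with symbols for replicates and lines for group means. Fibroblast markers are highest in the 3 DSS libraries (4033 to 7812 CPM), and the position score lies at -5.70 to -4.16 in UA+DSS and at 4.11 to 5.06 in DSS+UA.

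Position along the colon was set beside the members in the same way. Con 1 and Con 2 lay at opposite ends of the Con range of the score, at 5.53 and -3.03, and differed by 1.02-fold (Hgf) to 1.70-fold (Igfbp5) in the 10 genes, with a median of 1.15-fold. Con 3, at -1.83, had more than Con 1 of Fgf10 (12.7 against 4.40 CPM), Grem1 (68.8 against 31.1) and Igfbp5 (86.0 against 44.8). It was level with Con 1 in Igf1 (13.2 CPM in both) and below it in Fgf7 (11.6 against 15.2 CPM). These are comparisons of single libraries. With the score as a covariate, the 7 calls in DSS against Con held. That fit takes the slope of the score from differences within groups, which were widest in Con (-3.03 to 5.53). The slope therefore rests largely on Con 1 against Con 2 and Con 3, and the part of position was not tested. Log2 fold changes of UA+DSS against DSS went from -2.52 to -2.59 for Hgf, from -2.78 to -2.64 for Fgf7 and from -2.87 to -3.00 for Igfbp5. They went from -1.51 to -1.53 for Igf1, from -1.58 to -1.65 for Wnt5a and from -2.23 to -2.51 for Grem1. None of these 6 genes passed the test, in a comparison whose groups do not overlap in the score. Their adjusted p-values were 0.0726 (Fgf7) to 0.217 (Grem1). Among the genes not called without the score, Fgf10 went from -1.58 to -2.25 and Igf1r from -0.71 to -1.12. Met went from -0.19 to -0.37 and Rspo3 from -0.75 to -0.85. In DSS+UA against DSS Hgf (-2.45, adjusted p = 0.0330) and Fgf7 (-2.03, adjusted p = 0.0391) stayed called, and the other 5 genes had adjusted p-values of 0.0614 (Wnt5a) to 0.128 (Fgf10).

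The genes most like each called member were sought among 13709 genes by the root mean square difference of centred log2 CPM over the 12 libraries, where 0 would be the same profile. These values describe the 12 libraries, which share groups and depth, and carry no test. Wnt5a was nearest to Col15a1 (0.131) and Eng (0.162), against a median of 0.853 over all genes compared. Col15a1 averaged 33.6 CPM in Con, 93.9 in DSS, 33.6 in UA+DSS and 31.0 in DSS+UA. Igf1r was nearest to Iqsec1 (0.207) and Shisa3 (0.221), and Iqsec1 too reached its highest level, 152 CPM, in 1 DSS library. Igf1 was nearest to Colec12 (0.261) and Heg1 (0.281), Rspo3 to Arhgef17 and Sh3pxd2a (both 0.293), and Fgf10 to Olfml2b (0.358) and Myh10 (0.382). Fgf7 was nearest to Plau (0.361), which averaged 26.2, 75.5, 16.8 and 26.9 CPM in the 4 groups, and to Gm14005 (0.438). This measure grows with a gene's own spread, so its values are not compared between members. Hgf was nearest to Col18a1 (0.398) and Slit3 (0.420), Igfbp5 to Ereg (0.402) and Col18a1 (0.467), and Grem1 to Spon1 (0.493) and Col18a1 (0.524). Col18a1 averaged 36.6, 472, 97.3 and 136 CPM.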

How the data were processed

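The authors extracted total RNA from the colon (Trizol per the labels, an RNeasy kit per the methods), sequenced it on a Hiseq-2500 and mapped the reads to GRCm38. Their processing notes name FastQC, HISAT2 and Cuffdiff. Not given in the sources used here are versions, the annotation release, the use of strand and the handling of multiply mapped reads. Each deposited file gives raw counts by the authors for 1 library, by Ensembl gene. Of the 54532 listed genes, 54495 carry a name in GENCODE M21, which also gave places and exon lengths on GRCm38, and the 37 without a name hold 0.00364% of the counts.

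Groups were taken from the sample labels. The counts of 17658 genes that passed filterByExpr of edgeR 4.0.16 (R 4.3.3) were scaled with TMM factors, and a single robust quasi-likelihood fit covered the 12 libraries (common biological coefficient of variation 0.352). Fold changes are on the log2 scale with a standard error (SE) and 95% interval from the fit, p-values are two-sided and Benjamini-Hochberg adjusted over all tested genes, and the threshold was 0.05. The steps were tested on simulated counts. Tables and motif searches were made in Python 3.11.15 with numpy 2.4.6 and pandas 2.3.3, and figures with matplotlib 3.10.9. CPM is TMM-scaled, and CPM values after ± are SD over 3 libraries.

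The members, the 5 pathway lists, the 14 marker lists and the position score were chosen with earlier results of these data known, and 1 of 254 list genes (Ccl21a) was not matched to 1 identifier. The text names all members, from each pathway list and comparison with DSS or of DSS the 2 called genes with the largest rise and the 2 with the largest fall (mean log2 CPM of at least 1, prior count of 2), and the 2 genes nearest to each called member. Any further gene is marked as picked with its values in view. As alternatives served DESeq2 1.42.0, limma-voom (limma 3.58.1), library size, upper-quartile or DESeq2 size factors, no filter, a minimum of 10 counts per library, a 2-group fit, a block for the replicate number, the position score as a covariate, and leaving out each library. Libraries of the same replicate number did not deviate together, so the numbers were not used as pairs. No pair of libraries of a group agreed within counting noise. Serum, histology, immunoblot and microbiota data of the study were not analysed here.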

Additional observations from a re-analysis of the deposited data

How the results depend on the processing

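Over the 10 genes, 6 comparisons and 22 alternatives, 1194 of the refitted values kept their direction and side of the threshold, 86 lost a call, 12 gained one and 28 changed sign, all of the latter without a call. The position score as a covariate left 0 called genes when UA+DSS was set against DSS, 2 for DSS+UA against DSS and 0 for DSS+UA against Con. In DSS+UA against DSS limma-voom called 5 and DESeq2 9, no filter left 4 and a fit of the 2 groups alone left 2. DESeq2 called 2 in UA+DSS against Con, limma-voom 1 in DSS+UA against Con, and the 2-group fit 1 in UA+DSS against DSS+UA. Leaving out 1 library gave 6 to 8 called genes in DSS against Con, 2 to 6 for UA+DSS (2 without UA+DSS 2) and 0 to 7 for DSS+UA (0 without DSS+UA 3) when set against DSS, 0 in UA+DSS against Con, 0 to 3 in DSS+UA against Con and 0 to 1 in UA+DSS against DSS+UA. Pathway genes called in DSS against Con were 29 in the 2-group fit, against 46, and 31 to 46 without 1 library. In UA+DSS against DSS they were 0 with the position covariate, against 39, and 3 to 44 without 1 library. In DSS+UA against DSS, against 29, they were 47 by DESeq2, 16 with the replicate block, 8 with the position covariate, 11 in the 2-group fit and 0 to 29 without 1 library. The causes were not tested.

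Replicate numbers did not pair the libraries. Deviations from the group mean correlated at -0.216 to 0.187 (median 0.041) in 18 pairs of the same number, against -0.289 to 0.240 in 36 pairs of different numbers. With the replicate block, Fgf10 was called in DSS against Con (1.51, adjusted p = 0.0443). For DSS+UA against DSS Rspo3 was called (-1.19, adjusted p = 0.0439), while Igf1r (-1.56, adjusted p = 0.0763) and Fgf10 (-1.95, adjusted p = 0.0590) lost their calls. It changed no other call of the 10 genes.

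The sign changes, in log2 fold change, were of values without a call. In UA+DSS against DSS+UA, Hgf had 0.018 with library size, 0.0070 with upper-quartile factors and -0.35 to 0.31 without 1 library. Over the libraries left out, Igf1 ranged there from -0.24 to 0.20, Grem1 from -0.98 to 0.25 and Wnt5a from -0.14 to 0.19. The position covariate gave -0.37 for Fgf10 and -0.058 for Wnt5a. Met against DSS alone had -0.046 in DSS+UA with library size and -0.044 to 0.21 without 1 library. In UA+DSS against Con, Met had -0.0050 with the position covariate, and Igf1r had 0.032 by limma-voom, 0.0063 with no filter, 0.00024 with the replicate block and -0.15 to 0.23 without 1 library. Fgf10 had 0.0082 by limma-voom, 0.039 with the replicate block and -0.31 to 0.67 without 1 library, and Wnt5a -0.18 to 0.12. Wnt5a in DSS+UA against Con ranged from -0.23 to 0.095.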

Other observations

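Other stromal and muscle lists of the colon took different courses in the DSS+UA group. Markers of CD81+ trophocyte-type fibroblasts summed to 1283 to 2275 CPM in DSS+UA, above every library of the other groups (520 to 1201 CPM), whereas markers of subepithelial telocyte-type fibroblasts summed to 132 to 174 CPM there, against 228 to 306 CPM in UA+DSS. In UA+DSS against DSS+UA, 2 of 7 telocyte-type markers were called higher and 0 lower. Their median log2 fold change was -0.04, so the median did not share the direction of the sum. In DSS+UA against DSS, 1 of 6 trophocyte-type markers was called lower and 0 higher, so the sum and the single markers differ in direction. Smooth muscle markers summed to 480 to 920 CPM in DSS+UA and 1213 to 2565 CPM in UA+DSS, with 4 of 8 called higher in UA+DSS than in DSS+UA. Mesothelial markers summed to 2974 to 3818 CPM in DSS+UA and to 1704 to 2420 CPM in UA+DSS. The list shares Krt19 with the epithelial list, and its single markers had a median log2 fold change of 0.36 in UA+DSS against DSS+UA, with 1 of 5 called lower, so the sum and the median differ in direction. Neuronal and glial markers summed to 18.9 to 73.3 CPM in DSS+UA and 41.5 to 71.6 CPM in UA+DSS. Neutrophil markers summed to 14.6 to 74.3 CPM in UA+DSS and 134 to 690 CPM in DSS+UA. In UA+DSS 6 of 8 pancreatic acinar markers were at or under 3 counts in every library.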
